A study of Mus musculus with 36 samples.

Results

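Chromatin accessibility at the genes of the C/EBP family, Cebpa, Cebpb, Cebpd, Cebpe and Cebpg, was examined at 70 regions of open chromatin out of 105005 in the series. The 105005 regions came from merging the peaks of all 36 libraries wherever they overlapped by at least 1 bp. A region was assigned to a C/EBP gene when its centre lay nearest to a transcription start site (TSS) of that gene among all protein-coding TSSs, which gave 64 regions. To these were added 6 regions within 100 kb downstream of Cebpa that lay nearest to a neighbouring gene, 5 to Slc7a10 and 1 to Lrp3, because distal enhancers of Cebpa are known. By gene, 19 regions belonged to Cebpa, 27 to Cebpb, 9 to Cebpd, 6 to Cebpe and 9 to Cebpg. Of the 70, 44 were intergenic, 13 intronic, 8 at a promoter, 4 in an untranslated exon part and 1 in a coding exon. Regions are named here by the distance of their centre from the TSS in kb, with a minus sign upstream. The nearest gene need not be the gene a region acts on.

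The series profiled bone marrow cells of young (10-week-old) and aged (20-month-old) C57BL/6 mice by ATAC-seq, in which a transposase cuts accessible DNA. Hematopoietic stem cells (HSC) had 4 libraries at each age, and multipotent progenitors MPP1 to MPP4, granulocyte-macrophage progenitors (GMP), megakaryocyte-erythroid progenitors (MEP) and common lymphoid progenitors (CLP) had 2 at each age. No group carried a transgene, deletion or drug treatment, and the mice were female according to the study's methods. HSC and MPP fractions were sorted from Lin- Sca-1+ c-kit+ cells, where HSC were CD34- CD150+ CD48- Flt3-, MPP1 were CD34+ CD150+ CD48- Flt3-, MPP2 were CD150+ CD48+ Flt3-, MPP3 were CD150- CD48+ Flt3- and MPP4 were CD150- CD48+ Flt3+. GMP were Sca-1- c-kit+ cells with FcgR and CD34, MEP lacked both FcgR and CD34, and CLP, labelled IL-7+ and stained for the IL-7 receptor according to the methods, had low Sca-1 and c-kit. The study's description says that marrow was pooled before sorting, so libraries of 1 age may share a pool of mice. The p-values from limma below rest on the spread between libraries, and those from exact tests on counts of libraries. Both treat libraries as independent and do not measure the spread between mice. Fisher's exact test also counts libraries of different fractions alike.

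C/EBP proteins are basic leucine zipper transcription factors that bind DNA as dimers. C/EBPα is required for the step from multipotent progenitors to GMP and restrains the division of stem cells, C/EBPβ takes over during emergency granulopoiesis and in macrophages, C/EBPε drives late neutrophil granule genes, C/EBPδ acts in acute responses, and C/EBPγ lacks a transactivation domain and dimerises with the others. Cebpa is transcribed under the control of distal enhancers, of which the element near +37 kb is known to act in myeloid progenitors and to be bound by RUNX1 and PU.1.

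For the Cebpa element at +37.4 kb and 6 other regions away from a promoter, chosen with their values known because their patterns across fractions are described below, 30 bases of mm10 sequence around the match are shown, with the match in capitals. The motifs searched were TTGCNNAA for C/EBP, GAGGAAG for PU.1 (Spi1), TGTGGTT for RUNX and AGATAA for GATA, searched in either orientation up to 100 bp from where the summits of a region had their median.
Cebpa +37.4 kb, RUNX match, minus strand of chr7:35156734-35156763: aaataactgatgTGTGGTTgtggcaagaag
Cebpa +31.8 kb, PU.1 match, plus strand of chr7:35151047-35151076: cgtgatgagaaGAGGAAGtcctgtggcccc
Cebpb +21.9 kb, C/EBP match, plus strand of chr2:167710740-167710769: cgctggggtggTTGCGAAAgccctttctct
Cebpb +65.2 kb, C/EBP match, minus strand of chr2:167754085-167754114: aatgccacatcTTGCACAAcacaggaagcg
Cebpb +71.3 kb, C/EBP match, plus strand of chr2:167760109-167760138: agggctcaggaTTGCACAAtcatgccaccc
Cebpe +6.2 kb, 2 C/EBP matches, the first on the opposite strand, plus strand of chr14:54705973-54706002: ggTTTTGCAAaccttcccagTTGCAGAAgg
Cebpg -8.4 kb, PU.1 match, plus strand of chr7:35065057-35065086: tacataaggccGAGGAAGctgccaaattga

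A C/EBP match was present in 10 of the 70 regions (14.3%) and in 13.2% of the 104825 regions searched over the same window of 201 bp. A PU.1 match was present in 16 (22.9%, against 19.5%). RUNX matches were present in 3 regions (4.3%, against 11.3%) and GATA matches in 3 (4.3%, against 10.3%). These shares describe the letters found in a fixed window and no binding was measured.

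The libraries differed in how many peaks they held. HSC libraries had 27856 to 38756 peaks, the MPP libraries 27087 to 40157, CLP 27117 to 34205, GMP 52576 to 63288 and MEP 9581 to 11041. The shortest peak in a library was 132 to 139 bp in GMP and 163 to 191 bp in the other fractions. Over the 5335 regions called in all 36 libraries, the median fold enrichment was 18.5 to 20.3 in GMP, 7.51 to 7.77 in MEP and 11.6 to 15.5 in the remaining libraries, so values were compared between fractions both as deposited and relative to this library median. At the TSSs of the erythroid markers Gata1, Klf1 and Epor no region was called in any library, so they could not test the MEP label. The region of a further marker, Itga2b, was called in 26 libraries and in 0 MEP libraries, less often than elsewhere (adjusted p = 0.0346 by Fisher's exact test). Of the regions called more often in MEP than elsewhere over the whole series, 56.5% of 735 held the GATA letters AGATAA near the summit, against 10.3% of all regions, 7.9% of those called more often in GMP and 5.87% of those called more often in CLP. GATA factors are the main regulators of erythroid and megakaryocytic genes. The 3 GMP markers with a TSS region were called there in 4 of 4 GMP libraries and in 0 HSC libraries. Of the HSC markers, Hlf was called in all 8 HSC libraries, Procr in 4 and Mecom in 0, while GMP called these in 4, 3 and 3 of 4 libraries. The lymphoid markers Flt3, Il7r and Ebf1 were called in all GMP libraries, Il7r also in all MPP4 and CLP libraries and in GMP more often than elsewhere (adjusted p = 0.0351 by Fisher's exact test). Of 8 markers of other cells 3 had a region, and Camp, a granulocyte gene, was called in all GMP libraries and passed (adjusted p = 0.00205 by Fisher's exact test). The part of these other markers in the GMP results was not tested.

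The C/EBP regions were called most broadly in GMP and were almost entirely uncalled in MEP. GMP libraries called 48 to 53 of the 70 regions (68.6 to 75.7%), compared with 48.4 to 58.5% of all regions in the same libraries. HSC libraries called 17 to 27 of the C/EBP regions with a median of 24.5, which was 24.3 to 38.6% beside 25.4 to 35.6% of all regions. The 4 MEP libraries each called the same number, 2 regions (2.9%), where 8.8 to 10.2% of all regions were called.

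Among the progenitors between these extremes, MPP1 libraries called 23 to 28 C/EBP regions, MPP2 21 to 26, MPP3 23 to 28, MPP4 23 to 26 and CLP 18 to 26. The ranges of HSC, all 4 MPP fractions and CLP overlapped, whereas the GMP range lay above and the MEP range below all of them. The number of peaks in a library, in which GMP were highest and MEP lowest, moved with these counts. When each library outside MEP was reduced to its 27087 strongest peaks, GMP libraries called 23 to 27 C/EBP regions and HSC libraries 17 to 25, so that their ranges overlapped, beside 25.4 to 25.5% and 24.8 to 25.3% of all regions. With 9581 peaks in each library, GMP called 6 to 9, HSC 3 to 7 and MEP 2. These were 8.6 to 12.9%, 4.3 to 10.0% and 2.9% of the C/EBP regions. Of all regions, GMP and HSC libraries each called 9.1% at that setting and MEP libraries 8.8 to 8.9%. In bulk libraries, fewer cells with an open region and less opening per cell cannot be told apart.

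**Figure D1:**
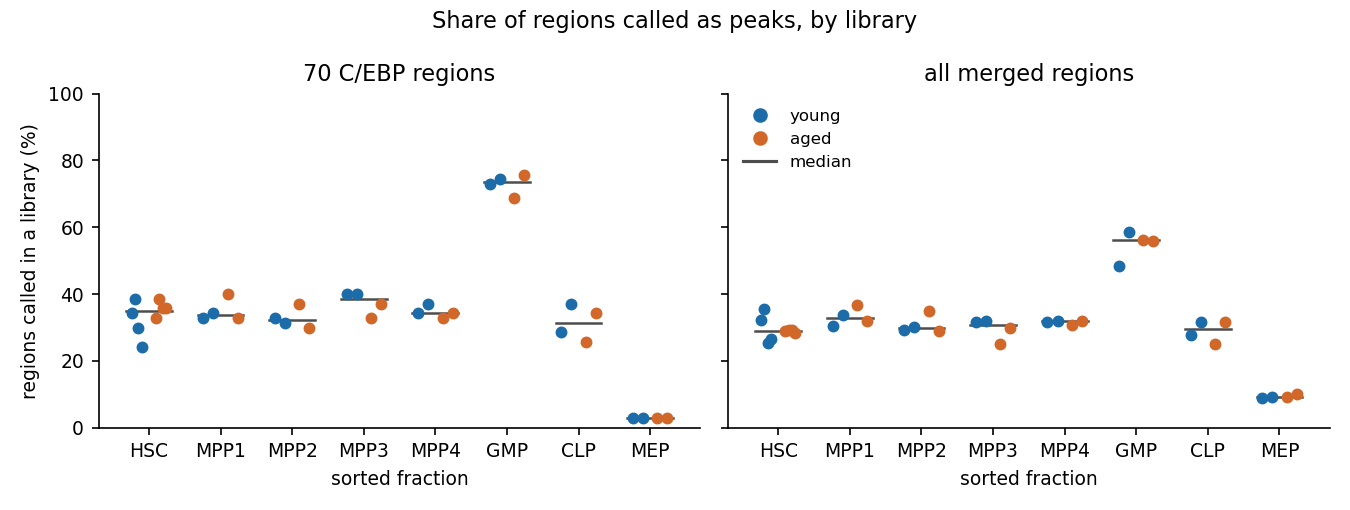
Share of regions called as peaks in each library (y axis, percent) by sorted fraction (x axis), for the 70 C/EBP regions on the left and all merged regions on the right. Each point is 1 library, blue for young and orange for aged, and bars are medians of a fraction. GMP libraries lie at 68.6 to 75.7% for C/EBP regions and at 48.4 to 58.5% for all regions, and MEP libraries at 2.9% and at 8.8 to 10.2%.

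Counted over all libraries of a fraction, 58 of the 70 C/EBP regions were called at least once in GMP (82.9%, against 69.8% of all regions), 35 in HSC (50%, against 49.2%), 28 in CLP (40.0%, against 39.5%) and 2 in MEP (2.9%, against 13.3%). Only 1 region, Cebpg +0.1 kb, which spans the Cebpg TSS and is centred in an untranslated exon part, was called in all 36 libraries (1.4%, against 5.08% of all regions). A further 8 were called in every HSC, MPP, GMP and CLP library and in no MEP library (11.4%, against 3.02%). They were Cebpa -0.1, +37.4 and +52.7 kb, Cebpb -8.7, +9.1 and +86.5 kb, Cebpd -0.1 kb and Cebpg -30.1 kb.

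Calls in GMP alone were made at 20 regions (28.6%, against 24.1% of all regions), a share near that of all regions, and 6 of these were called in all 4 GMP libraries (8.6%, against 8.81%). Those 6 were Cebpa +38.4 kb, Cebpb +26.3 kb, Cebpe -0.9 kb and Cebpg -8.4, -0.7 and +14.4 kb. HSC and MPP alone called 10 regions (14.3%, against 21%), and no C/EBP region was called in CLP alone or in MEP alone.

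Each fraction was then compared with the remaining libraries by Fisher's exact test on the number of libraries with a call, adjusted by the Benjamini-Hochberg method over all 105005 regions. For GMP, 25 of the 70 C/EBP regions were called more often (35.7%, where 27.6% of all regions passed in this direction) and 0 less often (0.775%). These were 5 regions of Cebpa, 9 of Cebpb, 3 of Cebpd, 5 of the 6 regions of Cebpe and 3 of Cebpg. Those of them called in GMP alone, such as Cebpg -8.4 kb, entered the merged set only through GMP peaks. No other direction was possible for them, so their p-values add no evidence. The same holds for the 24.1% of all regions called in GMP alone. For MEP, the fraction with the fewest peaks, 16 regions were called less often (10.6% of all regions) and 0 more often (0.701%), 5 of them at Cebpa, 7 at Cebpb, 2 at Cebpd and 2 at Cebpg. When only the strongest 9581 peaks of each library were kept, the number in the smallest library, none of the 25 passed in GMP. The 1 C/EBP region past the threshold there (1.87% of all regions) was Cebpb +71.3 kb, which had not passed with all peaks (adjusted p = 0.562 by Fisher's exact test). In MEP 1 region was still called less often (0.522% of all regions), Cebpa +37.4 kb. With 27087 peaks in each library outside MEP, 6 of the 25 still passed in GMP (6.39% of all regions): Cebpa +31.8 kb, Cebpb +21.9, +52.0 and +53.8 kb, Cebpe +5.4 kb and Cebpg -8.4 kb.

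Cebpa encodes the factor on which GMP depend, and its promoter was open in every HSC, MPP, CLP and GMP library. The promoter region, Cebpa -0.1 kb (chr7:35118917-35119564, the gene being at chr7:35119293-35121928 on the plus strand), had fold enrichments of 9.20, 7.24, 11.3 and 7.36 in young HSC and 8.73, 5.88, 6.97 and 9.15 in aged HSC. In GMP it reached 18.7 and 17.1 in young and 22.1 and 17.3 in aged libraries. Every GMP library lay above every other library at the promoter, and young and aged HSC overlapped.

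The remaining fractions fell between HSC and GMP at the Cebpa promoter. Medians were 8.04 in HSC, 8.76 in MPP1, 9.30 in MPP2, 9.47 in CLP, 10.8 in MPP4, 11.9 in MPP3 and 18 in GMP, and no MEP library called it. Of the neighbours in this order, GMP and MPP3 alone had ranges that did not overlap. Relative to the library median, the level was 0.961 in GMP, 0.828 in MPP3 and 0.663 in HSC, and all neighbouring ranges overlapped.

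In values as deposited, the element at +37.4 kb (chr7:35156390-35156994, intergenic) differed less between fractions than the promoter did. Its fold enrichment was 16.5, 15.5, 11.7 and 14.8 in young HSC, 10.6, 13.9, 13.4 and 10.9 in aged HSC, and 17.6, 15.7, 16.6 and 17.5 in GMP. It was called in all 32 libraries outside MEP, with medians from 11.6 in CLP to 17 in GMP, and every pair of neighbours in the order of medians overlapped. Relative to the library median it was 1.06 in HSC and 0.872 in GMP. On that scale its medians ran from 0.826 in CLP to 1.18 in MPP1. Those of the promoter ran from 0.663 in HSC to 0.961 in GMP, so the smaller difference was not seen there. The region carried the RUNX match shown above and no match to the C/EBP, PU.1 or GATA letters.

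The further Cebpa regions fell into sets by their calls. Open in all HSC libraries were the regions at -20.3 kb (chr7:35098730-35099199), at +7.9 kb (chr7:35126954-35127398) and at +52.7 kb (chr7:35171782-35172272). The +52.7 kb region had 16.8, 21.1, 23.0 and 17.6 in GMP, against a lowest, median and highest HSC value of 5.93, 7.73 and 9.32, so that GMP lay above all other libraries as at the promoter. At -20.3 kb the GMP values were 24.2, 20.95, 21.6 and 19.3, also above every other library, and the HSC values ran from 10.7 to 16.7. Relative to the library median, GMP did not lie apart at either region. At -20.3 kb the relative medians were 1.08 in GMP, 1.07 in HSC and 1.11 in CLP. At +52.7 kb GMP ran from 0.909 to 1.14 and MPP3 from 0.584 to 0.929.

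At the +7.9 kb region HSC and not GMP had the highest median, 9.89 beside 7.8. Its fold enrichment was 13.03, 8.14, 11.3 and 10.7 in young HSC, 9.97, 9.82, 9.55 and 9.30 in aged HSC, and 6.47, 7.59, 8.0 and 8.67 in GMP. Of the HSC libraries, 1 young one fell within the GMP range and the others lay above it. The region was called in 0 of 4 CLP libraries and in 28 of 32 others, a difference with an adjusted p of 0.0528 by Fisher's exact test.

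A second set was called in GMP with few calls elsewhere. Fold enrichment at +31.8 kb (chr7:35150977-35151267) was 12.2, 14.1, 13.9 and 11.0 in GMP, and it was otherwise called at 6.47 in 1 aged MPP2 library, at 4.64 in 1 aged MPP4 library and at 4.95 and 4.94 in 2 CLP libraries. The +20.7 kb region (chr7:35139842-35140154) had 9.06, 12.96, 9.49 and 13.1 in GMP. Next to the +37 kb element, the +38.4 kb region (chr7:35157545-35157784) was called in GMP alone, at 8.25, 6.75, 6.17 and 6.80. Regions at -19.6 and +5.7 kb also passed the test for GMP, while the +50.3 kb region, called in 10 libraries, did not.

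The last set held regions called in HSC and in no other fraction. The -0.8 kb region was called in 3 HSC libraries, at 6.24 and 4.11 in young and 7.19 in aged HSC. The +95.5 kb region, within an intron of Lrp3, was called in 3 of 4 aged HSC libraries at 5.61, 5.78 and 4.75 and in 0 of 4 young ones. Both gave an adjusted p of 0.446 for HSC against MPP by Fisher's exact test, and both were picked out after their values were seen. Neither passed the exact test of calls against age given below.

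**Figure D2:**
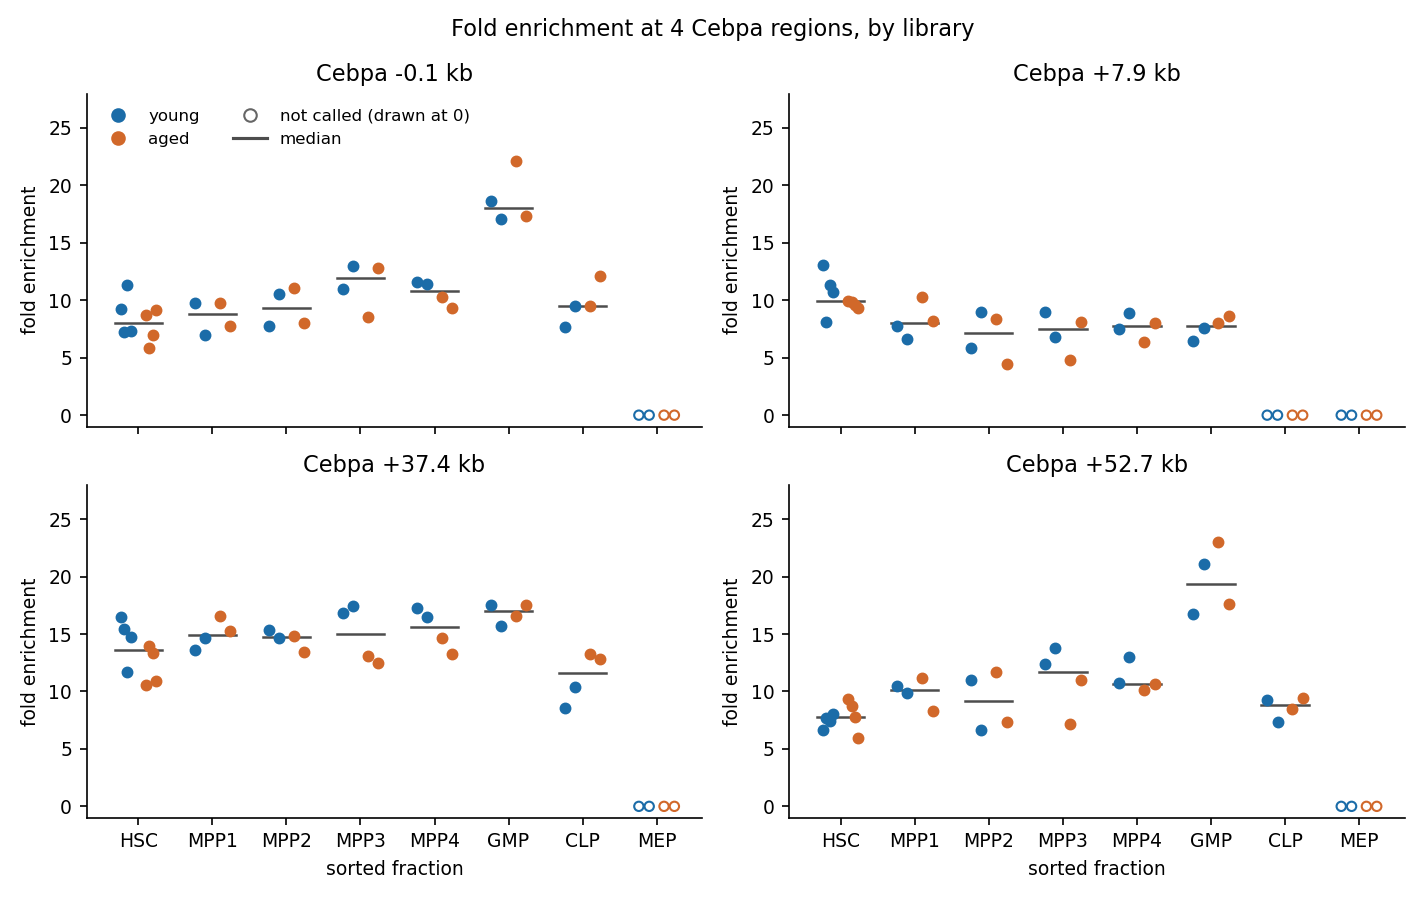
Fold enrichment (y axis) of 4 Cebpa regions in each library by sorted fraction (x axis). Points are libraries, blue for young and orange for aged, open points at 0 stand for libraries with no call, and bars are medians of called values. GMP lie above all other fractions at -0.1 and +52.7 kb, where their medians are 18 and 19.3, but not at +7.9 kb, where HSC have the highest median, 9.89.

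Cebpb, the factor used in emergency granulopoiesis, had the most regions and the largest spread between them. Its promoter region, +0.1 kb (chr2:167688690-167689261), was weakly called, at 4.70 and 4.03 in 2 of 4 young HSC libraries, at 5.68, 5.48 and 4.27 in 3 of 4 aged HSC libraries and at 6.01, 8.26, 5.75 and 7.9 in GMP. It was also called in all 4 CLP and all 4 MPP3 libraries, and in 21 libraries in all. The GMP values of the promoter lay below the GMP values at -8.7, +21.9, +65.2, +71.3 and +116.1 kb.

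Downstream of Cebpb, the regions at +65.2, +71.3 and +116.1 kb had their highest deposited values in GMP and were called in at most 4 of 8 HSC libraries. Others downstream, among them +21.9, +52.0 and +53.8 kb, met both conditions too. Relative to the library median, the median at +116.1 kb was higher in CLP than in GMP, 0.992 beside 0.908. The ranges overlapped, at 0.784 to 1.07 in CLP and 0.787 to 0.924 in GMP. The +65.2 kb region (chr2:167753883-167754431) had 23.3, 20.2, 23.9 and 23.5 in GMP, was called in all 16 MPP libraries at 6.91 to 17.5, and was called in HSC at 7.33, 11.0 and 8.68 in 3 young libraries and 6.45 in 1 aged library. As deposited, every GMP library lay above every other library there. Relative to the library median, GMP ran from 1.06 to 1.26, overlapping MPP3 (0.93 to 1.2) and MPP4 (1.0 to 1.2). The difference in calls between HSC (4 of 8) and MPP (16 of 16) had an adjusted p of 0.223 by Fisher's exact test. Of the distal Cebpb regions described in these paragraphs, -8.7, +9.1, +35 and +86.5 kb were named by the rule given in the methods, and the rest were chosen after their values were seen.

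The +71.3 kb region (chr2:167759994-167760383) had 21.5, 20.3, 27.04 and 17.7 in GMP, 9.09, 12.1, 8.76 and 13.03 in MPP4 and 4.84, 11.4, 6.39 and 8.58 in MPP3, and in HSC it was called at 5.24 in 1 young and at 5.37, 7.30 and 6.42 in 3 aged libraries. At +116.1 kb (chr2:167804772-167805328), no HSC or MPP1 library had a call, whereas MPP3 had 11.3, 7.26, 5.54 and 8.65, CLP 12.9, 14.4, 9.81 and 14.2, and GMP 14.5, 17.6, 18.2 and 17.5. For calls in HSC against all MPP, the adjusted p was 0.964 at +71.3 kb and 0.223 at +116.1 kb by Fisher's exact test. Between these regions lay others that HSC called in full, such as +76.4 kb, with an HSC median of 9.28 and a GMP median of 10.3.

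Other Cebpb regions were open in all or nearly all fractions outside MEP. The -8.7 kb region (chr2:167679846-167680513), in an intron of Tmem189, had 14.6, 12.5, 19.2 and 14.9 in GMP, and the +9.1 kb region (chr2:167697861-167698266) and the +86.5 kb region were called in the same 32 libraries. The +38.4 kb region ran the other way, with calls in 7 of 8 HSC libraries and in 0 GMP libraries. It did not pass for GMP against the rest (adjusted p = 0.255 by Fisher's exact test). By contrast +21.9 kb (chr2:167710672-167710955), with 14.6, 14.2, 15.7 and 14.3, was called in all GMP libraries and outside them in 1 young MPP3 library at 7.37.

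**Figure D3:**
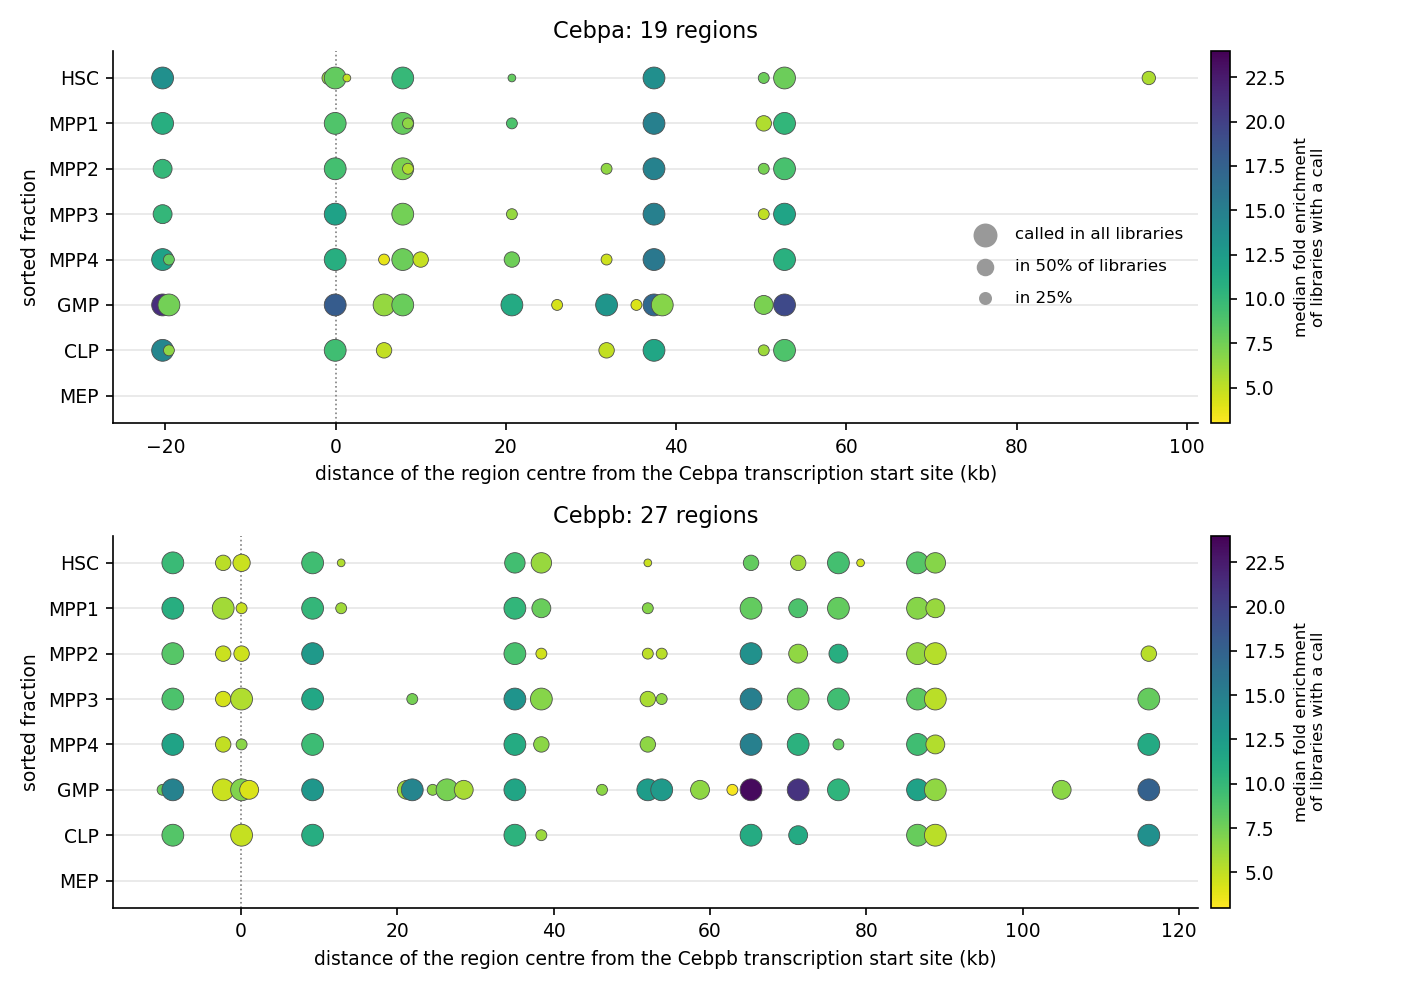
Regions of Cebpa (top) and Cebpb (bottom) by distance of the region centre from the transcription start site (x axis, kb) and by sorted fraction (y axis). Point size gives the share of the libraries of a fraction with a call and colour the median fold enrichment of the called libraries. The MEP row is empty for both genes, and GMP have the most points, 13 of 19 regions for Cebpa and 24 of 27 for Cebpb.

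Cebpe, the late neutrophil factor, had weak calls at its promoter in GMP and none elsewhere. The -0.9 kb region (chr14:54712883-54713178, with the gene on the minus strand at chr14:54710360-54712174) was called at 5.51, 6.44, 6.37 and 5.83 in the 4 GMP libraries and in no other library. These values lay at 0.299 to 0.339 of the library median, the region did not pass with equal peak numbers, and levels below the calling threshold are unknown. The 0.0 kb region was called in 3 GMP libraries at 5.74, 7.01 and 6.62, again in no other. The +5.4 kb region (chr14:54706595-54706938) had 15.5, 13.9, 11.0 and 10.7 in GMP and 4.00 in 1 young MPP3 library.

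The sixth Cebpe region behaved unlike the rest of the locus. The +6.2 kb region (chr14:54705728-54706280) was called in 35 of 36 libraries, at 20.5, 17.5, 12.9 and 17 in young HSC, 15.8, 12.9, 13.9 and 11.96 in aged HSC and 14.3, 12.7, 15.1 and 18.1 in GMP. It was 1 of the 2 C/EBP regions called in MEP, at 10.1, 8.03, 8.94 and 8.93, and in CLP it was called at 5.39, 7.56 and 5.50 in 3 of 4 libraries. HSC and GMP overlapped, and every called CLP value lay below every MEP value. Its window held 3 C/EBP matches and 2 GATA matches, of which 2 C/EBP matches are in the sequence shown above.

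Cebpd, an early response member, had an open promoter at -0.1 kb (chr16:15886646-15887730) in all libraries outside MEP. Fold enrichment was 3.82, 5.67, 5.11 and 4.86 in young HSC and 7.12, 5.86, 5.27 and 7.71 in aged HSC, with 3 of the 4 aged values above every young value. In GMP it was 10.3, 9.91, 12.2 and 10.3, above every other library, with a GMP median of 10.3 beside 6.62 in MPP3, the next fraction. Relative to the library median, the ranges of GMP and its neighbour overlapped.

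At the end of the Cebpd gene, the +2.9 kb region (chr16:15890012-15890292) was called at 11.1, 11.7, 9.95 and 11.3 in GMP, at 5.05, 5.47, 5.42 and 8.66 in CLP, in 6 of 16 MPP libraries and in 0 of 8 HSC libraries. GMP and CLP were each called in 4 of 4 libraries against 10 of 32 others, and neither passed, with an adjusted p of 0.0582 for GMP and 0.248 for CLP by Fisher's exact test. The +0.7 kb region within the coding exon was called in 13 libraries and in 0 GMP libraries. It did not pass for GMP against the rest either (adjusted p = 0.552 by Fisher's exact test). The +69.3 kb region (chr16:15956354-15956902), in an intron of Spidr, had 14.3, 6.81, 7.9 and 10.2 in young HSC, 6.45, 7.22, 15.2 and 8.49 in aged HSC, 4.78, 6.34, 7.39 and 4.28 in MPP3 and 18.4, 13.3, 17.8 and 10.2 in GMP.

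Cebpg, the member without a transactivation domain, was called at its TSS in every library. The +0.1 kb region (chr7:35055944-35056979) was 14.2, 14.6, 10.8 and 13.7 in young HSC, 13.7, 11.4, 12.6 and 11.2 in aged HSC, 20.2, 19.6, 20.3 and 16.9 in GMP and 9.88, 5.40, 9.37 and 8.45 in MEP. As deposited, the GMP median of 19.9 lay above that of MPP2, 15.1, with no overlap, although 1 young MPP4 library reached 20.04, and the MEP median of 8.91 lay below that of MPP1, 12, with no overlap. Relative to the library median, neighbouring fractions overlapped throughout, from 0.948 in CLP to 1.16 in MPP2 and MEP.

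Cebpg lies 62.7 kb upstream of Cebpa, and regions between the 2 genes were split by the nearest TSS. The -30.1 kb region of Cebpg (chr7:35086421-35086979) was called in all 32 libraries outside MEP and had 16.3, 18.4, 19.1 and 19.3 in GMP. The -24.5 kb region (chr7:35080717-35081454) was called in 6 of 8 HSC, 4 of 4 MPP1 and 2 of 4 MPP2 libraries, was uncalled in MPP3, MPP4 and CLP, and was called again in GMP at 7.55, 8.53, 8.60 and 8.42. The -8.4 kb region (chr7:35064850-35065189), with the PU.1 match shown above, was called in GMP alone at 15.99, 18.9, 17.8 and 15.9, for an adjusted p of 0.000193 by Fisher's exact test. It could differ in this direction only, being in the merged set through GMP peaks alone. It had the highest values of the 6 regions called in all GMP libraries and nowhere else, and was singled out after its values were seen.

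To ask which regions differed in degree rather than in presence, fold enrichment was compared between GMP and HSC, and between GMP and MPP3, at regions called in every library of both fractions, with limma on log2 values centred on the library median and age as a further term. Of the 70 C/EBP regions, 15 could be tested against HSC and 7 passed. Relatively higher in GMP were 4 regions (20.7% of 13884 regions tested passed in this direction). Cebpa +52.7 kb differed by 0.76 on the log2 scale (SE 0.14, limma adjusted p = 0.000229), Cebpa -0.1 kb by 0.62 (SE 0.15, adjusted p = 0.0027), Cebpg +70.8 kb by 0.53 (SE 0.14, adjusted p = 0.00559) and Cebpd -0.1 kb by 0.34 (SE 0.14, adjusted p = 0.0469). Relatively lower were 3 (29.9% of all), with Cebpa +7.9 kb at -1.0 (SE 0.13, limma adjusted p = 1.73e-05), Cebpe +6.2 kb at -0.61 (SE 0.14, adjusted p = 0.00211) and Cebpb +76.4 kb at -0.50 (SE 0.14, adjusted p = 0.00624). The +37.4 kb element of Cebpa did not pass, at -0.25 (SE 0.12, limma adjusted p = 0.0965).

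Against MPP3, 20 C/EBP regions could be tested and 8 passed, 6 higher in GMP (23.2% of 18742 regions tested) and 2 lower (15.8%). The higher regions were distal ones, led by Cebpb +71.3 kb at 1.05 (SE 0.20, limma adjusted p = 0.00163) and Cebpd +69.3 kb at 0.91 (SE 0.23, adjusted p = 0.00782), then Cebpg +70.8 kb at 0.67, Cebpb +116.1 kb at 0.62, Cebpb -8.7 kb at 0.46 and Cebpg -30.1 kb at 0.43. Lower were Cebpb +35 kb at -0.77 (SE 0.18, limma adjusted p = 0.00491) and Cebpe +6.2 kb at -0.57 (SE 0.13, adjusted p = 0.00501). At Cebpa no region passed, with 0.27 at -0.1 kb (limma adjusted p = 0.12), 0.38 at +52.7 kb (adjusted p = 0.0654) and -0.29 at +37.4 kb (adjusted p = 0.0881).

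These differences are relative to the shift of all tested regions, whose median without centring was 0.53 higher in GMP than in HSC and 0.52 higher than in MPP3. Without centring, 12 C/EBP regions were higher and 1 lower in GMP than in HSC (67.3% and 5.82% of all regions tested), and 12 were higher and 0 lower than in MPP3 (63.2% and 2.97%). Cebpa +7.9 kb was the region still lower than in HSC, at -0.41. Cebpe +6.2 kb was then at -0.02 against HSC and -0.10 against MPP3, Cebpb +35 kb at -0.30 against MPP3, and Cebpb +76.4 kb changed sign to 0.09 against HSC.

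**Figure D4:**
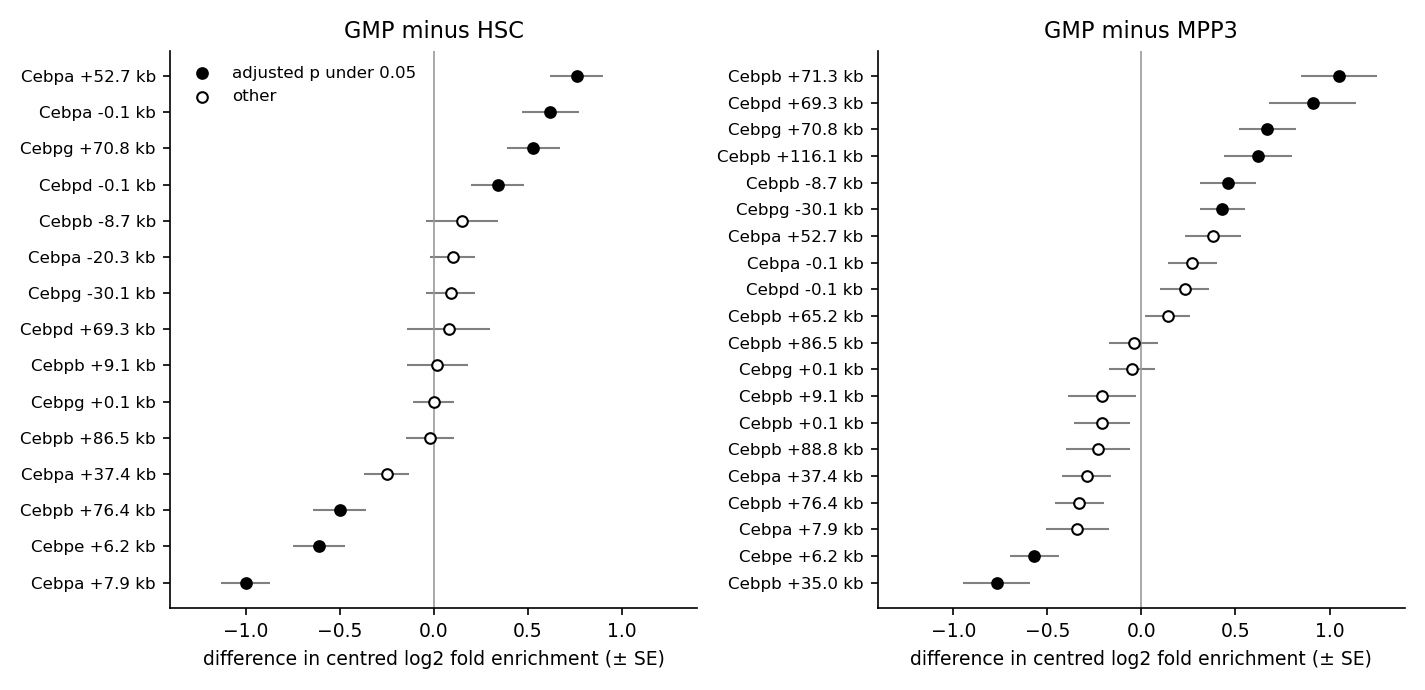
Difference in centred log2 fold enrichment (x axis, mean ± SE) between GMP and HSC on the left and between GMP and MPP3 on the right, for each C/EBP region called in every library of both fractions (y axis). Filled points had a limma adjusted p under 0.05. The largest differences are -1.0 for Cebpa +7.9 kb against HSC and 1.05 for Cebpb +71.3 kb against MPP3.

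HSC and MPP together called 13 C/EBP regions more often than GMP, MEP and CLP together (18.6%, where 11.2% of all regions passed in this direction) and 10 less often (14.3%, against 14.4%) by Fisher's exact test after adjustment. This split rested on the fractions it pooled, since without the 4 MEP libraries 2 regions were called more often (4.84% of all regions), Cebpa +7.9 kb and Cebpb +38.4 kb, and 22 less often (22.6%). The total of 23 in both directions ranged from 13 to 25 when 1 library was left out. The balance also turned with a −log10 q of at least 10, to 4 more often and 12 less often (7.24% and 11.8% of all regions). With 50% of the region covered by peaks it turned to 6 and 8 (8.89% and 13.7%). All regions leaned the same way under both settings. HSC against MPP gave 0 regions after adjustment in either direction (0.155% and 0.516% of all regions), and 2 higher and 2 lower at an unadjusted p under 0.05 (2.84% and 3.89% of all regions). CLP against the rest gave 0 as well (1.4% higher and 0.0838% lower among all regions), with 2 higher and 2 lower without adjustment (6.25% and 3.48%).

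No difference with age passed the tests at the C/EBP regions. Young HSC called 22.25 ± 4.27 and aged HSC 25 ± 1.63 of the 70 regions (mean ± SD, n = 4 each), ranges that overlapped. Over all fractions, an exact conditional test of aged against young calls within fractions found 0 C/EBP regions after adjustment, with 0.0% of the 99670 regions tested passing, and 0 at an unadjusted p under 0.05 (0.613% of all regions higher and 0.56% lower in aged libraries). The smallest unadjusted p by this exact test was 0.0833, for Cebpb +52.0 kb, called in 8 of 18 young and 3 of 18 aged libraries. No C/EBP region was called in all 4 HSC libraries of 1 age and in none of the other, out of 35 called in HSC (among all regions called in HSC, 0.43% were called so in aged and 0.277% in young). The peak names of 9 aged and 2 young libraries carry the word new, whose meaning the sources used here do not give. Without those libraries, 0 C/EBP regions passed any age test.

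For fold enrichment in HSC, limma with centring found 0 of 15 C/EBP regions after adjustment (0.0% of all regions in either direction) and 1 at an unadjusted p under 0.05, where 4.04% of all regions were higher and 4.86% lower. That region was Cebpd -0.1 kb, which was 0.42 higher in aged HSC on the log2 scale (SE 0.17, unadjusted p = 0.0309 and adjusted p = 0.511 by limma across all regions). The Cebpg TSS region at +0.1 kb, the single C/EBP region called in every library, differed by -0.12 (SE 0.06, limma adjusted p = 0.732) between aged and young over all fractions.

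Within each of the other fractions, with 2 libraries of each age, limma found 0 C/EBP regions after adjustment (0.0% of all regions). Without adjustment 4 had a p under 0.05. Cebpb +35 kb was 0.79 higher in aged MPP2 (3.35% of all regions were higher) and Cebpb -8.7 kb 0.65 higher in aged MPP3 (2.02%), while Cebpe +5.4 kb was 0.50 and Cebpb +88.8 kb 0.45 lower in aged GMP (4.05% were lower), on the log2 scale, with limma adjusted p of 0.721 to 1.0.

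Calls that split the ages within these fractions are given as counts with no test. In MPP3, 3 of the 34 C/EBP regions called there were called in both young and in no aged libraries (3.83% of all regions called in MPP3 were), Cebpb +52.0 kb, Cebpd +99.2 kb and Cebpe -2.7 kb, and 0 showed the reverse (0.842%). In MPP4, 3 of 35 were called in both aged and no young libraries (2.54%), Cebpb +38.4 kb and Cebpd +69.3 and +99.2 kb, and 3 in both young and no aged ones (2.69%), Cebpa +10.0 kb and Cebpb -2.3 and +52.0 kb. MPP1 had Cebpa +50.3 kb in aged libraries (3.52%) and Cebpd +0.7 kb in young ones (1.62%), and CLP had Cebpd +0.7 kb in young ones (2.88%), where aged-only calls made up 1.98% of all regions. MPP2, GMP and MEP had no such C/EBP region, beside 3.6% of all regions called in aged and 2.09% in young libraries only in MPP2, 2.83% and 1.33% in GMP and 3.21% and 1.83% in MEP.

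Genes that work with the C/EBP family were followed by the region at their TSS, over 14242 protein-coding genes that had one, of which 5.67% were called more often in GMP and 18.3% less often in MEP. Among 14 genes known as C/EBP targets in granulocytes and monocytes, 13 had a TSS region, and 9 were called more often in GMP by Fisher's exact test after adjustment. These were Elane, Mpo and Ctsg, which encode primary granule proteins, Camp, Lcn2 and Ngp of the later granules, S100a8 and S100a9, which encode calprotectin, and Csf1r, the M-CSF receptor. Elane was called in 4 of 4 GMP and in 0 other libraries (adjusted p = 0.000193 by Fisher's exact test). Its region was in the merged set through GMP peaks alone, so it could differ in this direction only. Csf3r, Il6ra, Lyz2 and Ltf did not pass, and 12 of the 13 regions were called in all 4 GMP libraries, as were 81.5% of all TSS regions. In MEP, 1 of the 13, Il6ra, was called less often (adjusted p = 0.00818 by Fisher's exact test).

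Among 5 upstream regulators, 4 had a TSS region and 1, Gfi1, a repressor needed for neutrophils, was called more often in GMP, with 4 of 4 GMP libraries against 9 of 32 others, among them 2 MPP3, 3 MPP4, 4 CLP and 0 HSC libraries (adjusted p = 0.0428 by Fisher's exact test). Runx1, which binds the Cebpa locus in myeloid progenitors, was called in 26 libraries and less often in MEP (adjusted p = 0.0346 by Fisher's exact test). Among 6 partners and modulators, all had a TSS region and 0 were called more often in GMP. Of these, Ddit3, which encodes the C/EBP partner CHOP, and Trib2, which encodes an adaptor for C/EBPα degradation, were called in all 36 libraries, and Trib3 was called less often in MEP (adjusted p = 0.000516 by Fisher's exact test).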

How the data were processed

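The 36 libraries were grouped by fraction and age as labelled. According to the labels and methods, 20000 sorted cells were transposed per library, fragments of 240 to 360 bp were sequenced as 60-base single reads, and the authors aligned them to mm10 with Bowtie2, subsampled alignments with SAMtools and called peaks in each library with MACS2 2.2.6 (q cutoff 0.001, no model). The deposited peak files give, per summit, fold enrichment over background (a ratio) and −log10 q-values. Read depth was not given in these files, so no counting intervals were made. The 1358077 deposited entries (1204561 peaks) were merged into 105005 regions. A library called a region when a peak of it overlapped the region, and the value was the highest fold enrichment of its summits. Genes came from GENCODE M21.

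Calls were compared by Fisher's exact test, two-sided, and ages by an exact test conditional on fraction, with Benjamini-Hochberg adjustment over all regions and a threshold of 0.05. Log2 fold enrichment was compared with limma 3.58.1 in R 4.3.3 at regions called in every library compared, after subtraction of the library median over the 5335 regions called in all libraries. Python 3.11.15, pandas 2.3.3, SciPy 1.17.1 and pysam 0.24.0 were used, and scripts were tested on simulated data. Named regions included 1 region for each gene in the window from 1000 bp upstream to 100 bp downstream of its TSS. These were Cebpa -0.1 kb, Cebpb +0.1 kb, Cebpd -0.1 kb, Cebpe -0.9 kb and Cebpg +0.1 kb. Other regions in that window, among them Cebpa -0.8 kb, Cebpe 0.0 kb and Cebpg -0.7 kb, were not named by this rule. Also named were Cebpa regions within 100 kb called in 4 or more libraries, the 4 regions of each other gene called in most libraries, and any region that passed an age test or separated the ages in HSC. Other regions are named as members of a count or were chosen after their values were seen. The members, lists and tests were chosen with earlier results of these data known. Alternatives were a stricter q, 50% coverage, equal peak numbers, uncentred values, summit means, other region sets and leaving out libraries.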

Additional observations from a re-analysis of the deposited data

Results flagged for a closer look

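Calls of the Cebpd +99.2 kb region split by age in opposite ways in MPP3 and MPP4. Both young MPP3 libraries called it, at 5.84 and 6.80, and 0 aged ones did, whereas in MPP4 the 2 aged libraries called it, at 6.0 and 6.19, and 0 young ones. The difference between the fractions was not tested, and the region, which lies in an intron of Spidr, was singled out after its values were seen. Among 32 sets of HSC values at C/EBP regions examined for a library far from the rest of its group, 0 held one, where chance gives about 1 in 20.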

How the results depend on the processing

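The number of C/EBP regions was 62 when taken within 50 kb of a TSS and 56 with peaks of −log10 q of at least 10. With equal peak numbers in all libraries, the C/EBP regions called in any library were 11 in HSC, 12 in GMP, 8 in CLP, 2 in MEP and, in MPP1 to MPP4, 4, 8, 9 and 11, and with equal numbers outside MEP they were 29 in GMP. Single libraries called 9.1% of all regions at the first setting (8.8 to 8.9% in MEP), and GMP libraries 25.4 to 25.5% at the second. The share of all regions called in any library of a fraction is not given for these settings. The counts therefore show nothing particular to the C/EBP regions. For GMP, 25 C/EBP regions became 1 with equal peak numbers in all libraries and 6 with equal numbers outside MEP, and 24 to 27 when 1 library was left out. Signs of the difference in percentage points of libraries changed at Cebpe -2.7 kb with the stricter q (-3.1), at Cebpa +5.7 kb with 50% coverage (-6.2) and, with equal numbers outside MEP, at Cebpa -19.6 kb (-6.2), Cebpa +5.7 kb (-3.1), Cebpd +97.7 kb (-9.4) and Cebpe -2.7 kb (-3.1). For MEP, 16 became 10 with the stricter q (7.1% of all regions), 5 with 50% coverage (4.38%) and 1 with equal peak numbers (0.522%), and 12 to 16 with 1 library left out. For CLP, 0 became 1 called less often (Cebpe +6.2 kb) with the stricter q (0.00857% of all regions) and also 1 with 50% coverage (0.079%). It became 1 without MEP (1.05%), 2 without GMP (3.42% more and 0.644% less often), and 0 to 1 with 1 library left out. For HSC and MPP against the other fractions, 23 (13 more and 10 less often) became 16 with the stricter q (4 and 12), 14 with 50% coverage (6 and 8), 2 with equal numbers in all libraries (1 and 1) and 5 with equal numbers outside MEP (5 and 0), and 13 to 25 with 1 library left out. Of all regions, 7.24% and 11.8% passed with the stricter q and 8.89% and 13.7% with 50% coverage. With equal numbers these shares were 1.51% and 0.469% in all libraries and 7.49% and 1.53% outside MEP. The count of C/EBP regions was 15 when any 1 of the 4 GMP libraries was left out and 13 when any 1 of the 4 MEP libraries was. Signs there changed with 50% coverage at Cebpb +86.5 kb (-4.2) and Cebpd -0.1 kb (-4.2), and with equal numbers at Cebpa +52.7 kb (-4.2), Cebpb +86.5 kb (-8.3) and Cebpg +70.8 kb (-12.5). HSC against MPP gave 1, Cebpb +65.2 kb, called less often in HSC with 50% coverage (0.31% of all regions). Equal peak numbers leave fewer calls by construction. The cause of the other changes was not tested.

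For fold enrichment of GMP against HSC, 7 became 13 without centring, with Cebpb +76.4 kb at 0.09, and 12 when regions called in 50% of the libraries were admitted, and 6 to 7 with 1 library left out. Against MPP3, 8 became 12 and 11 under these settings and 6 to 9 with 1 library left out. Age gave 0 under every setting run, leave-one-out included. Correlations of same-numbered deviations were -0.098 to 0.125 in HSC. Elsewhere they were all positive, 0.014 to 0.241, with 0.117 in MPP1, 0.167 in MPP3 and 0.241 in GMP. The replicate numbers were not treated as pairs in the main tests, and the replicate block gave 0 calls in each age test. The equal-number setting outside MEP, those without MEP, GMP or libraries with new in their peak names, the counts of called C/EBP regions at equal peak numbers, and the age tests within single fractions were chosen after seeing the data. An uncalled region has no value in these files, so levels below the calling threshold are unknown, and with 2 libraries of an age outside HSC, precision on age is low.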

Other observations

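Over the 36 libraries, TSS regions were compared by Pearson's r of log2(fold enrichment + 1) with uncalled regions at 0, as a description in which the points share library, peak number and fraction. MEP libraries are included, and no values without them are given for genes outside the family. The Cebpa promoter was most like those of Plin3 (0.985), Myo1f (0.983), T2 (0.982), Dennd1c (0.982) and Stx18 (0.982). The Cebpb promoter had lower values, with Ireb2 at 0.771, Katnal1 at 0.747, 1110065P20Rik and Yrdc, which share a region, at 0.743 and Smg6 at 0.738. The Cebpd promoter was most like those of Arpp19 (0.976), 1700010I14Rik (0.976), Sbk1 (0.975), Nrros (0.972) and Ccdc159 (0.971), and that of Cebpg like those of Gata3 (0.923), Rell1 (0.894), Trim26 (0.893), Gcsh (0.887) and Dusp6 (0.885). The Cebpe promoter region had a value of 1.000 with Asic4, Olr1, Gpld1, Ccr2 and Xdh, all called in the 4 GMP libraries alone, a pattern that 142 genes (0.997%) shared.

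Within the family, the Cebpa and Cebpd promoters had the highest r over 36 libraries, 0.971, and 0.743 over the 32 outside MEP, where Cebpa with Cebpe (0.782) and Cebpd with Cebpe (0.757) were higher. Cebpa with Cebpg gave 0.801 and 0.707, Cebpa with Cebpb 0.480 and 0.299, and Cebpa with Cebpe 0.370 and 0.782 over the same sets of libraries.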
